A study of Homo sapiens with 39 samples.

Results

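The 10 genes described here encode surface antigens of plasma cells and myeloma cells: TNFRSF17 (BCMA), TNFRSF13B (TACI), SLAMF7 (CS1), LY9 (CD229), CD38, SDC1 (CD138), ITGB7, GPRC5D, FCRL5 and CD46. They were taken by name from the 57773 genes of a count table. All 10 had a row in it, and 9 passed the filter on low counts, as did 14460 genes of the whole table. RNA was sequenced from JJN3, an established human multiple myeloma line known for a translocation that activates the MAF gene. The 39 libraries form 13 groups of 3: cells at time 0 (T0), and cultures exposed for 1, 3, 6 or 24 h to DMSO, ZnSO4 or GSK-J4. DMSO is the control, ZnSO4 supplies zinc, and GSK-J4 inhibits the KDM6 histone demethylases. Every group is the same line in RPMI medium with 10% FCS, and the labels name no other allele or agent, so each result holds for 1 cell line. The sources used here give no doses. The labels do not say whether the 3 libraries of a group came from separate cultures, so the p-values reflect variation among these libraries alone, and that variation may be technical. In such bulk RNA, fewer cells with a transcript and less of it per cell cannot be told apart, and protein on the surface was not measured.

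Plasma cells carry these proteins for survival signals, adhesion and protection. TNFRSF17 and TNFRSF13B are receptors for the TNF family ligands APRIL and BAFF and signal through TRAF adaptors to NF-kB; the enzyme gamma-secretase cuts TNFRSF17 off the membrane. SDC1 is a heparan sulfate proteoglycan that holds growth factors and is shed by proteases, ITGB7 pairs with the integrin chain ITGA4, and CD38 degrades NAD outside the cell. SLAMF7 and LY9 belong to the SLAM family of self-binding receptors, FCRL5 is a receptor for IgG, GPRC5D is an orphan receptor, and CD46 shields cells from complement. TNFRSF17, GPRC5D, CD38 and SLAMF7 are targets of antibodies or engineered T cells used against myeloma, and FCRL5, SDC1, ITGB7, LY9, TNFRSF13B and CD46 have been studied as such.

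To compare levels between genes, library-scaled counts (CPM) were divided by the exon length in kilobases. This length joins all annotated exons of a gene, from 1118 bases for TNFRSF17 to 12419 for FCRL5. It can exceed that of any 1 transcript, so the order of genes depends on this choice. At T0, TNFRSF17 was the highest at 279.7 ± 64.3 CPM per kilobase (SD, n = 3, as for each level per kilobase). ITGB7 followed at 96.5 ± 2.17, SDC1 at 69.6 ± 5.88 and CD46 at 21.4 ± 4.39 CPM per kilobase. Lower still were SLAMF7 at 14.1 ± 2.95, GPRC5D at 8.62 ± 1.29, CD38 at 3.32 ± 0.269 and FCRL5 at 0.916 ± 0.0898 CPM per kilobase. LY9 (0.122 ± 0.0143) and TNFRSF13B (0.0370 ± 0.0641) were the lowest, and their libraries overlapped; no other neighbours in this order did. After 24 h in DMSO, SDC1 (38.2 ± 1.57) and CD46 (36.99 ± 0.872) overlapped, GPRC5D (7.18 ± 0.447) stood above SLAMF7 (5.70 ± 0.325), and LY9 (0.280 ± 0.0844) overlapped FCRL5 (0.214 ± 0.0814 CPM per kilobase). The order of the levels per length thus differed between T0 and 24 h. By CPM without length, ITGB7 (422, 433 and 441) stood above TNFRSF17 (238, 318 and 382) at T0. CD38 (24.6, 20.96 and 22.7) then stood above GPRC5D (11.4, 8.83 and 8.87 CPM).

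**Figure D1:**
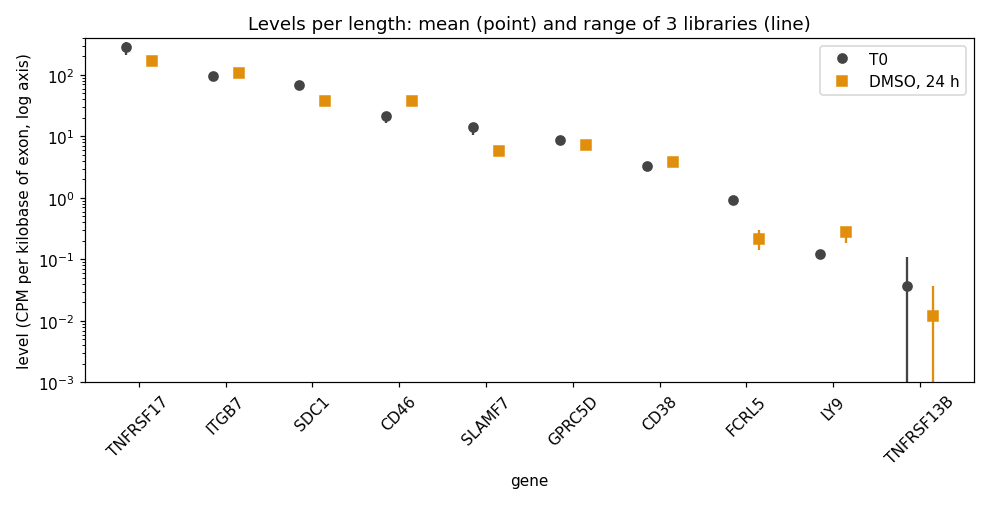
Levels of the 10 genes per exon length (CPM per kilobase, log axis) at T0 (circles) and after 24 h in DMSO (squares), as the mean and the range of 3 libraries. TNFRSF17 is the highest at both times, CD46 moves up to the level of SDC1 by 24 h, and the range of TNFRSF13B reaches 0, drawn at the foot of the axis.

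The sequence upstream of 4 of these genes is shown because their mRNA was lower with ZnSO4 at 1 or more times (adjusted p under 0.05 in edgeR's test). They are GPRC5D, SDC1, CD38 and ITGB7. For CD38 this was at 6 h only, and it held in 3 of 12 alternative settings. TNFRSF17, SLAMF7 and LY9 had no entry in the promoter table, which covered 7 of the 10 genes. Each line gives the 250 bases before the gene's first listed start in RefSeq (GRCh38.p14), 5′ to 3′ on the gene's strand. Any other start of a gene was not searched. Capitals mark the core of the metal response element, TGCACNC or TGCGCNC on either strand, which the zinc-sensing factor MTF1 binds.
GPRC5D, chr12:12952171-12952420, minus strand: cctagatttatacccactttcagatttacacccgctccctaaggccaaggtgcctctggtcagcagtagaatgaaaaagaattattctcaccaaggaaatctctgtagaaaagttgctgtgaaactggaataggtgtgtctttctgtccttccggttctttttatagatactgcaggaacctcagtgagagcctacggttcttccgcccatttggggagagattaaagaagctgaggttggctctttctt
SDC1, chr2:20225476-20225725, minus strand: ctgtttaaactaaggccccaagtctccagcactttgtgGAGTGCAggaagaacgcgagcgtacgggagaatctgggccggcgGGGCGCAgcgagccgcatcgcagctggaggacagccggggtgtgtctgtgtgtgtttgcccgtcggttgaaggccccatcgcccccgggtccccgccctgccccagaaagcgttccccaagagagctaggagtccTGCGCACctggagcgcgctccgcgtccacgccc
CD38, chr4:15778078-15778327, plus strand: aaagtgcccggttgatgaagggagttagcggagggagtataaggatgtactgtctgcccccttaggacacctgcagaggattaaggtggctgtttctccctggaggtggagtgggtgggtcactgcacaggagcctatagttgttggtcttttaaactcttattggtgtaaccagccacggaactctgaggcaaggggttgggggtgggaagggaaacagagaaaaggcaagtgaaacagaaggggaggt
ITGB7, chr12:53207252-53207501, minus strand: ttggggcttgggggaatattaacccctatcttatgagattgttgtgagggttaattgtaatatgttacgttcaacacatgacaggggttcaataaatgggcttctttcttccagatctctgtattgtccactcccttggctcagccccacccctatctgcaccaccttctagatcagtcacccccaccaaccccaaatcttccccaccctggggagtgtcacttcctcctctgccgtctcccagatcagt
SDC1 held 3 matches in these bases, starting 212, 168 and 33 bases before the start, and a further one at base 10 after it. ITGB7 held 1 match, at base 40 after its start, and the windows of GPRC5D, CD38, FCRL5, CD46 and TNFRSF13B held 0. Of all 35116 RefSeq windows of 300 bases, which were not limited to 1 start per gene, 29.6% held at least 1 match, so a match is common. The MAF recognition motif TGCTGA lay once in the GPRC5D window, on the opposite strand 191 bases before the start, and in 0 of the other 6; 17.3% of all windows held it. A match is a description of the letters only, and binding was not measured.

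Library totals ran from 4347745 to 10695671 counts (median 6010529). The 11 plasma cell markers listed, 4 of which are among the genes described here, summed to between 11260 and 14330 CPM in the group means. Most of this was JCHAIN, which alone held 9389 to 11950 CPM, and CD27 was close to 0 (at most 0.322 CPM). Markers of other cells were low: 5 B cell genes summed to 5.19 to 7.65 CPM, 4 T cell genes to 0.480 to 1.29, 3 NK cell genes to 1.57 to 3.05, 4 monocyte genes to 0.399 to 1.04 and 3 erythroid genes to 0.678 to 1.79 CPM. The 3 matched stromal and endothelial genes of 4 listed summed to 11.1 to 49.2 CPM, nearly all from COL1A1 and COL1A2, while CDH5 stayed at or under 0.728 CPM. Mitochondrially encoded genes took 4.376 to 5.542% of counts at 24 h and 2.921 to 3.902% before. COL1A1 (log2FC 1.43, standard error ± 0.38, adjusted p = 0.00087) and COL1A2 (1.64 ± 0.44, adjusted p = 0.001) rose in DMSO at 24 h against T0. Both fell with ZnSO4 at 3 h (by 1.23 ± 0.38 and 1.46 ± 0.43 on the log2 scale, adjusted p = 0.023 and 0.015). The part of these shifts in the antigens' results was not tested.

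The 9 tested genes were compared between each compound and DMSO at the same time, and between the compounds. Each log2 fold change (log2FC) is given with its standard error. A gene was called at an adjusted p under 0.05 in edgeR's quasi-likelihood test over all 14460 genes. With ZnSO4 against DMSO, every antigen called in the fit of all groups was lower. These were 1 of 9 at 3 h (4.16% of all tested genes were called lower), 4 of 9 at 6 h (4.51%) and 4 of 9 at 24 h (5.58%). The median log2FC of the 9 was 0.01 at 3 h, -0.14 at 6 h and -0.22 at 24 h, while the median of all tested genes stayed between -0.02 and 0.02 in all comparisons described here. With GSK-J4 against DMSO, 1 of 9 was lower at 3 h (0.927% of all tested genes) and 3 of 9 at 6 h (10.5%), and 0 were higher. At 24 h GSK-J4 had 2 of 9 called higher (15.2% of all genes) and 1 of 9 lower (16.8%), with a median of 0.12. This split depends on the scaling: with library totals in place of TMM factors, 3 antigens were called higher and 0 lower, as SDC1 passed and CD46 did not, and the genes called of all those tested went from 2205 higher and 2424 lower to 3256 and 1526. In the same way the split over all genes went from 1422 and 1525 to 1791 and 1117 with GSK-J4 at 6 h (2 antigens lower), and from 953 and 602 to 758 and 947 with ZnSO4 at 3 h (2 antigens lower). At 1 h neither compound had an antigen called by DESeq2 or in edgeR's fit of all groups (0.104% of all genes for GSK-J4, 0.678% for ZnSO4). In the edgeR fit 1 gene each had an unadjusted p under 0.05, TNFRSF17 with GSK-J4 and CD38 with ZnSO4. An edgeR fit of the compared groups only called TNFRSF17 lower with GSK-J4 (-0.21, adjusted p = 0.012). Both compounds were compared with the same DMSO libraries, so these counts are not independent of each other. Some rest on few libraries: without 1 library in turn, the calls with ZnSO4 numbered 0 to 1 at 3 h and 2 to 3 at 6 h, and those with GSK-J4 0 to 1 at 3 h and 1 to 3 at 6 h.

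**Figure D2:**
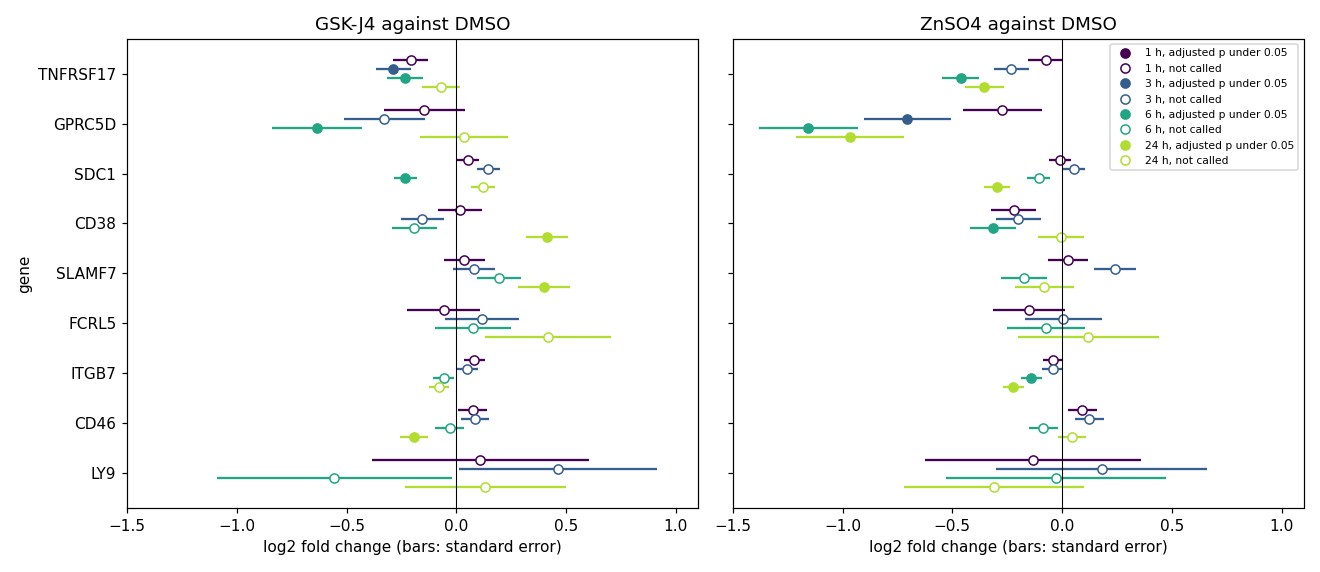
Log2 fold change of each tested antigen (rows) with GSK-J4 (left) or ZnSO4 (right) against DMSO at the same time, with bars of 1 standard error; colours give the time and filled points an adjusted p under 0.05. All filled points of ZnSO4 lie left of 0, and those of GSK-J4 lie left of 0 at 3 and 6 h but on both sides at 24 h.

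Set directly against each other, the compounds parted at 24 h. GSK-J4 stood above ZnSO4 for TNFRSF17, GPRC5D, SDC1, CD38, SLAMF7 and ITGB7 and below it for CD46, which makes 7 of 9 called against 24.5% of all tested genes. The median log2FC of the 9 was 0.42 at 24 h, against 0.01 over all tested genes. With library totals the same numbers of antigens were called at 24 h, 6 higher and 1 lower, while the split over all genes went from 1734 higher and 1812 lower to 2447 and 1229. At 6 h, SLAMF7 alone of the 9 was called, higher with GSK-J4 (8.53% of all genes were higher). At 1 and 3 h edgeR and DESeq2 called 0 of 9 (0.664% and 10.1% of all genes), with 2 and 1 genes at an unadjusted p under 0.05. Library totals called 2 of 9 higher at 3 h (SDC1 and ITGB7) and at 6 h (SLAMF7 and TNFRSF17), where the split over all genes went from 577 and 885 to 1270 and 638 at 3 h and from 1233 and 1428 to 1528 and 1181 at 6 h. FCRL5 (log2FC 0.30, 95% interval -0.34 to 0.93) and LY9 (0.44, -0.40 to 1.28) did not pass at 24 h, and their intervals do not show that the compounds act alike on them.

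For TNFRSF17, SDC1, SLAMF7, FCRL5, CD46 and LY9 the largest fold change described here was that over time in DMSO. At 24 h against T0, 7 of the 9 were called, 3 higher and 4 lower, where 63.2% of all tested genes were (30.5% higher and 32.7% lower). FCRL5, SLAMF7, SDC1 and TNFRSF17 fell, and CD46, LY9 and ITGB7 rose. At 1, 3 and 6 h, edgeR called 0 of 9 (0.0346%, 0.0968% and 0.0138% of all genes), with 0, 3 and 3 genes at an unadjusted p under 0.05; DESeq2 called TNFRSF17 at 6 h and otherwise 0. Replicate numbers here follow the order of the samples within each group and are not in the labels. T0 replicate 1 stood low for TNFRSF17 and SLAMF7. Without it TNFRSF17 (log2FC -0.38, adjusted p = 0.0009) and SLAMF7 (-0.41, adjusted p = 0.0049) fell by 3 h, and both fell (-0.51 and -0.39) and CD38 rose (0.39, adjusted p = 0.029) by 6 h. TNFRSF17 also passed at 6 h without a filter and without DMSO replicate 3 of 6 h (-0.49, adjusted p = 0.0012). The 24 h comparison depends on the scaling: with library totals in place of TMM factors the median of all genes moved by -0.22, the genes called went from 4406 higher and 4734 lower to 2769 and 6519, the antigens to 2 higher and 5 lower, and ITGB7 turned from 0.15 to -0.0701.

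**Figure D3:**
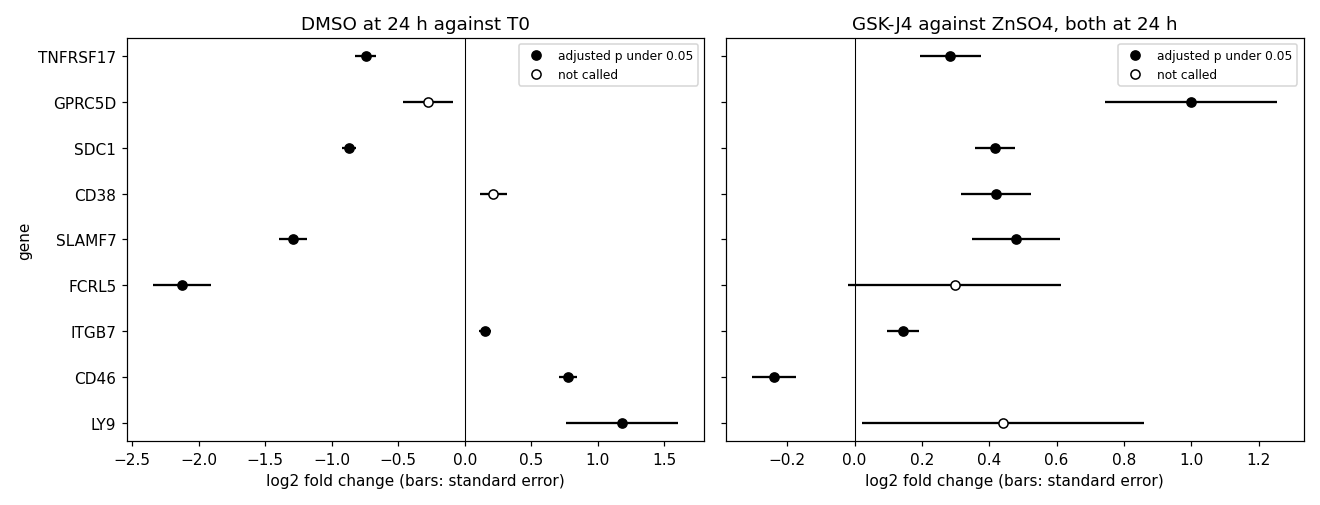
Log2 fold change of each tested antigen in DMSO at 24 h against T0 (left) and in GSK-J4 against ZnSO4 at 24 h (right), with bars of 1 standard error and filled points for an adjusted p under 0.05. FCRL5 and SLAMF7 lie farthest left over time, and CD46 is the filled point left of 0 between the compounds; ITGB7 over time turns to the other side of 0 when library totals set the scale.

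**Figure D4:**
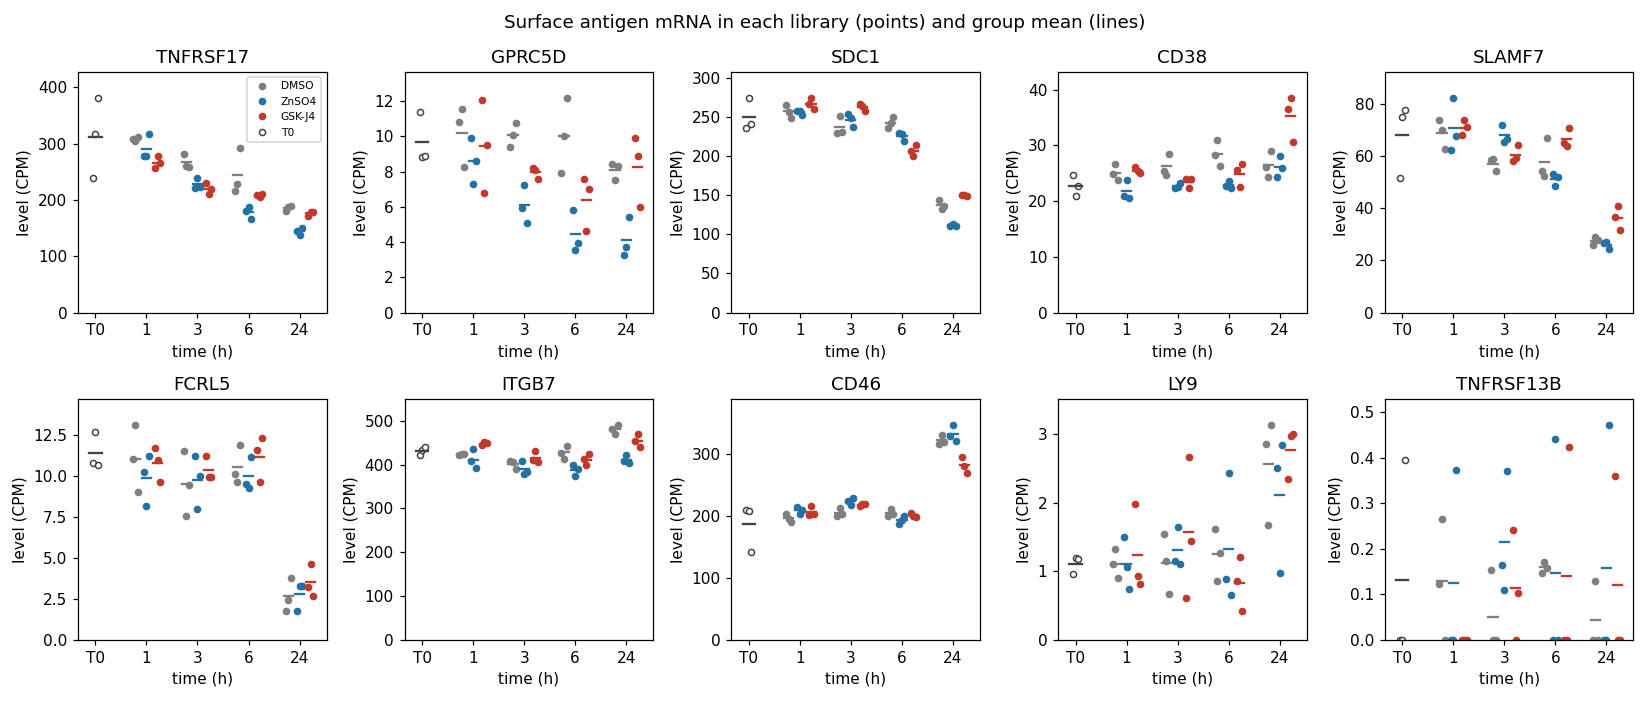
Level of each of the 10 antigens (CPM) in every library (points) and the group means (lines) at T0 (open circles) and at 1, 3, 6 and 24 h in DMSO (grey), ZnSO4 (blue) and GSK-J4 (red). TNFRSF17, SDC1, SLAMF7 and FCRL5 are lower at 24 h in all 3 treatments, CD46 is higher, and TNFRSF13B holds from 0 to 4 counts per library.

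Of the TNF receptors, TNFRSF17 (ENSG00000048462) fell with time and fell further with ZnSO4. At T0 it stood at 238, 318 and 382 CPM, and after 24 h in DMSO at 179.8, 187 and 189.7 CPM, with no overlap (log2FC -0.75 ± 0.08, adjusted p = 3.5e-12). Against the DMSO libraries of 6 h in place of T0 the same 24 h libraries were lower by -0.40 on the log2 scale (adjusted p = 2.3e-05).
With ZnSO4 it was at 180.5, 188 and 166 CPM at 6 h, against 216, 228 and 292 CPM in DMSO (log2FC -0.46 ± 0.08, adjusted p = 6.6e-05). At 24 h the ZnSO4 libraries held 146, 139 and 151 CPM (-0.36 ± 0.09 against DMSO, adjusted p = 0.0049; -0.32 with an adjusted p of 0.05, at the threshold, without ZnSO4 replicate 2). Neither pair of groups overlapped, and the 24 h libraries with ZnSO4 were the lowest of all 39. At 3 h with ZnSO4 (222, 239 and 223 CPM against 283, 261 and 259 in DMSO) the difference of -0.23 ± 0.08 missed the threshold (adjusted p = 0.056); it passed with RLE factors, library totals, no filter or a fit of the compared groups only.
NPIPB2 overlaps TNFRSF17 on the other strand at group means of 1.43 to 3.54 CPM, far below the level of TNFRSF17.
With GSK-J4, TNFRSF17 was lower at 3 h (229.5, 209.9 and 220.1 CPM; log2FC -0.29 ± 0.08, adjusted p = 0.035) and 6 h (209.6, 205 and 211 CPM; -0.23 ± 0.08, adjusted p = 0.037). The call at 3 h was lost with library totals, with DESeq2, without the 24 h groups, and without any 1 of DMSO replicates 1, 2 and 3 or GSK-J4 replicates 2 and 3 of 3 h. The call at 6 h was lost under the same 3 settings and without any 1 GSK-J4 library, and the value dropped to -0.09 (adjusted p = 0.54) without DMSO replicate 3 of 6 h, its highest library. At 24 h the GSK-J4 libraries (172, 179 and 178.5 CPM) lay below those of DMSO by a difference of -0.07 ± 0.09 that did not pass (adjusted p = 0.57). They lay above ZnSO4 (0.28 ± 0.09, adjusted p = 0.015). That last call was lost without ZnSO4 replicate 2 or GSK-J4 replicate 3 of 24 h.

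TNFRSF13B (ENSG00000240505), the second receptor of the pair, was at the detection limit. It held 0 to 4 counts in each library and failed the filter, so it was not tested. A floor of 3 counts equals 0.2801 to 0.7505 CPM in these libraries, and the floor and its intervals cover counting error only. The ligand genes TNFSF13 (APRIL; group means 0.422 to 1.44 CPM) and TNFSF13B (BAFF; 0.302 to 1.17 CPM) were also too low to test. TNFRSF13C, the BAFF receptor, was low at 1.85 CPM at T0 and rose to 3.92 CPM in DMSO at 24 h (log2FC 1.15 ± 0.33, adjusted p = 0.002); no compound moved it past the threshold.
Of the gamma-secretase genes, 5 of 6 were tested. GSK-J4 raised 1 and lowered 0 of the 5 at 24 h (15.2% and 16.8% of all tested genes). ZnSO4 lowered 1 and raised 0 at that time (5.58% and 3.98% of all). The gene lowered by ZnSO4 was NCSTN, which binds the substrate (-0.29 ± 0.08, adjusted p = 0.0079). NCSTN stood higher with GSK-J4 than with ZnSO4 at 24 h (0.38 ± 0.08, adjusted p = 9.7e-05).
Among 11 TRAF adaptors and NF-kB kinases, 1 rose with ZnSO4 at 24 h and 0 fell (median log2FC 0.06; 3.98% and 5.58% of all tested genes), and 3 rose and 2 fell with GSK-J4 (median -0.02; 15.2% and 16.8% of all). In DMSO at 24 h against T0, 5 rose and 5 fell (30.5% and 32.7% of all). BIRC3, a ubiquitin ligase of the TRAF complex, fell from 366 to 111 CPM over that time (-1.72 ± 0.07, adjusted p = 1.5e-32) and rose with ZnSO4 at 3 h (0.30 ± 0.06, adjusted p = 0.00015). IKBKB, a kinase of the NF-kB pathway, fell over time (-1.25 ± 0.08) and rose with GSK-J4 at 24 h (0.43 ± 0.09, adjusted p = 0.00018), while TRAF6 rose over time (1.51 ± 0.14, adjusted p = 3.3e-15).

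In the SLAM family, SLAMF7 rose with GSK-J4 at 24 h and LY9 had no call with either compound. SLAMF7 (ENSG00000026751) stood at 36.5, 41.0 and 31.8 CPM with GSK-J4 at 24 h, against 25.9, 29.1 and 27.7 in DMSO and 26.8, 27.02 and 24.3 CPM with ZnSO4. The GSK-J4 libraries overlapped neither group (log2FC 0.40 ± 0.12 against DMSO, adjusted p = 0.0068; 0.48 ± 0.13 against ZnSO4, adjusted p = 0.0042). Without GSK-J4 replicate 2, its highest library, the difference from DMSO was 0.30 (adjusted p = 0.085). The difference from ZnSO4 was already present at 6 h (65.0, 63.7 and 70.8 against 53.1, 48.7 and 52.0 CPM; 0.37 ± 0.10, adjusted p = 0.0063). Against DMSO at 6 h the value was 0.19 ± 0.10 (adjusted p = 0.17), and 0.31 (adjusted p = 0.036) without DMSO replicate 3 of 6 h. With ZnSO4 at 3 h SLAMF7 held 71.9, 65.5 and 66.4 CPM against 58.4, 58.7 and 54.3 in DMSO, above each of them. That difference of 0.24 ± 0.10 did not pass (adjusted p = 0.11). It was called higher in a fit of the compared groups only (0.24, adjusted p = 0.012). Over time in DMSO, SLAMF7 fell from 51.6, 74.9 and 77.5 CPM at T0 to under 30 CPM in each of the 3 libraries (-1.29 ± 0.11, adjusted p = 7.9e-17), so the level with GSK-J4 at 24 h was still below every T0 library.
LY9 (ENSG00000122224), which neighbours SLAMF7 on the chromosome, lay between 0.424 and 2.66 CPM in the libraries up to 6 h. It held 0.958, 1.19 and 1.18 CPM at T0 and 2.85, 1.68 and 3.13 CPM in DMSO at 24 h, from 6 to 9 and 13 to 21 counts (1.18 ± 0.42, adjusted p = 0.012). That call was lost without DMSO replicate 3 of 24 h (1.02, adjusted p = 0.059). Neither compound moved LY9 past the threshold, with standard errors between 0.37 and 0.54. SLAMF7 and LY9 thus moved in opposite directions over the 24 h in DMSO. Of the 9 other SLAM receptors and adaptors listed, CD48 alone passed the filter; this ligand of CD244 fell over time from 122.5 to 69.1 CPM (-0.83 ± 0.07, adjusted p = 2.5e-15) and fell with ZnSO4 at 24 h to 52.5 CPM (-0.39 ± 0.09, adjusted p = 0.0017).

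CD38 (ENSG00000004468), the NAD-degrading ectoenzyme, rose with GSK-J4 at 24 h. Its libraries held 36.5, 38.6 and 30.5 CPM, against 26.2, 24.3 and 28.9 in DMSO and 24.3, 28.2 and 25.98 CPM with ZnSO4. All 3 lay above all DMSO and ZnSO4 libraries of 24 h (log2FC 0.41 ± 0.10 against DMSO, adjusted p = 0.00047; 0.42 ± 0.10 against ZnSO4, adjusted p = 0.0015). At 6 h CD38 with GSK-J4 (25.6, 22.6 and 26.7 CPM) overlapped DMSO (28.2, 30.99 and 26.3 CPM). The effect of GSK-J4 changed between those times by 0.61 ± 0.14 (adjusted p = 0.0027; 2.72% of all genes and 2 of the 9 antigens were called higher in this test). With ZnSO4 at 6 h CD38 was lower (22.7, 23.7 and 22.3 CPM; -0.32 ± 0.10, adjusted p = 0.043), a call lost under library totals, no filter, DESeq2, a fit of the compared groups only, and without DMSO replicate 1 or 2 or any 1 ZnSO4 library of 6 h.
Over 24 h in DMSO, CD38 was not called (24.6, 20.96 and 22.7 CPM at T0; 0.21 ± 0.10, adjusted p = 0.057). It passed with RLE factors (0.22, adjusted p = 0.046) and without T0 replicate 1 (0.28) or DMSO replicate 2 of 24 h (0.27). These were 3 of 12 alternative settings, DMSO at 6 h as reference among them. Over the 12 its value ran from -0.11 to 0.28, with an adjusted p of up to 0.95.
Its relative BST1 was at most 0.420 CPM and not tested. Of the 7 tested genes of CD38 relatives and NAD handling, 1 rose and 1 fell with each compound at 24 h. With GSK-J4 the median log2FC of the 7 was 0.19 (15.2% of all tested genes rose and 16.8% fell). With ZnSO4 the median was 0.02 (3.98% of all rose and 5.58% fell). NAMPT, the rate-limiting enzyme of NAD salvage, rose from 154.8 to 315 CPM with GSK-J4 at 24 h (1.03 ± 0.06, adjusted p = 3.8e-23) and to 199.5 CPM with ZnSO4 (0.37 ± 0.06, adjusted p = 7.5e-06). PARP1, which consumes NAD in DNA repair, fell with both (-0.31 ± 0.05 and -0.18 ± 0.05, adjusted p = 1.3e-07 and 0.0062). ENTPD1, an ectonucleotidase, fell over time in DMSO (-1.31 ± 0.10, adjusted p = 5.4e-19).

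SDC1 (ENSG00000115884), the main heparan sulfate proteoglycan of plasma cells, fell with GSK-J4 at 6 h and with ZnSO4 at 24 h. At 3 h the libraries with GSK-J4 held 267, 264 and 257 CPM against 229, 251 and 230.3 in DMSO, above each of them, but the difference of 0.15 ± 0.05 did not pass (adjusted p = 0.13; 0.14, adjusted p = 0.0059 in a fit of these 2 groups only). At 6 h they held 206, 199.6 and 214 CPM against 236, 243 and 249.55 in DMSO, below each of them (log2FC -0.23 ± 0.05, adjusted p = 0.00056). At 24 h they held 149.9, 149.6 and 149 CPM against 144, 133 and 136 in DMSO, again above each of them without passing (0.12 ± 0.06, adjusted p = 0.09; 0.21, adjusted p = 0.0017 with library totals).
The effect of GSK-J4 on SDC1 changed by -0.38 ± 0.07 from 3 to 6 h (adjusted p = 0.00038; 1 of the 9 antigens and 1.92% of all genes were called lower) and by 0.35 ± 0.08 from 6 to 24 h (adjusted p = 0.0012). With ZnSO4, SDC1 fell at 24 h to 111, 114 and 111 CPM (-0.30 ± 0.06, adjusted p = 0.00033). GSK-J4 stood above ZnSO4 at that time by 0.42 ± 0.06 (adjusted p = 1.3e-07). Over time in DMSO it fell from 235, 274 and 241 CPM at T0 to the 24 h values above (-0.87 ± 0.05, adjusted p = 2e-22). All 9 libraries of 24 h lay below all 30 earlier ones.
With the filter on low counts, neither edgeR nor DESeq2 called a change of the ZnSO4 effect for any antigen from 3 to 6 h (2.18% of all genes) or from 6 to 24 h (0.408%). At an unadjusted p under 0.05 there were 3 and 2 genes. Without the filter edgeR called SLAMF7 from 3 to 6 h (-0.47, adjusted p = 0.024). Of the 21 tested genes of heparan sulfate synthesis, other syndecans and shedding, 4 rose and 1 fell with ZnSO4 at 24 h (median 0.04; 3.98% and 5.58% of all tested genes), and 6 rose and 4 fell with GSK-J4 (median -0.01; 15.2% and 16.8% of all). Over time in DMSO 5 rose and 7 fell (30.5% and 32.7% of all). The sharpest fall was that of B3GALT6, which builds the linker of the sugar chain, from 67.4 to 11.6 CPM (-2.52 ± 0.13, adjusted p = 9.5e-27); HS6ST1, a sulfotransferase (-1.31 ± 0.09), and XYLT2, which starts the chain (-1.09 ± 0.11), fell with it.

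ITGB7 (ENSG00000139626), the beta chain that pairs with ITGA4 in the gut-homing integrin, fell with ZnSO4. At 24 h it held 409, 422 and 405 CPM with ZnSO4 against 481, 469.6 and 491 in DMSO, with no overlap (log2FC -0.22 ± 0.05, adjusted p = 0.00065). At 6 h the ZnSO4 libraries (399, 375 and 391 CPM) also lay below those of DMSO (427, 413 and 444 CPM), by a difference of -0.14 ± 0.05 (adjusted p = 0.045). This call at 6 h was lost under library totals, no filter, a fit of the compared groups only, a fit without the 24 h groups, and without DMSO replicate 1 or 3 or ZnSO4 replicate 2 or 3 of 6 h. With GSK-J4 at 24 h (454, 470.25 and 439.8 CPM) it overlapped DMSO (-0.08 ± 0.05, adjusted p = 0.19) and stood above ZnSO4 (0.14 ± 0.05, adjusted p = 0.02), a call lost without a filter and without ZnSO4 replicate 1 or 3 or GSK-J4 replicate 2 of 24 h.
Over time in DMSO, ITGB7 went from 422, 433 and 441 CPM at T0 to the 24 h values above (0.15 ± 0.05, adjusted p = 0.003), a call lost without a filter (adjusted p = 0.059) and in a fit of these groups only (adjusted p = 0.053), besides its reversal with library totals.
In the reference annotation ITGB7 overlaps ZNF740 on the other strand, and the strand setting of the counts is unknown here, so reads of the pair cannot be told apart. ZNF740 held 17.7 to 66.3 CPM in the group means and moved otherwise: it fell over time in DMSO (-1.35 ± 0.09, adjusted p = 6.4e-20) and rose with ZnSO4 at 3 h (0.40 ± 0.08) and with GSK-J4 at 24 h (0.35 ± 0.11).
Of 11 tested integrins and ligands, ITGA4 was the 1 that ZnSO4 moved, at each of 3 times (10.8%, 9.32% and 9.56% of all genes). It fell at 3 h (-0.21 ± 0.06, adjusted p = 0.014), at 6 h (-0.31 ± 0.06, adjusted p = 0.00025) and at 24 h, from 336 to 277 CPM (-0.28 ± 0.06, adjusted p = 0.001). With GSK-J4, ICAM1, an integrin ligand, rose at 3 h (0.42 ± 0.09, adjusted p = 0.0012) and ITGAV, the alpha chain of vitronectin receptors, rose at 24 h (0.44 ± 0.12, adjusted p = 0.0039). Both chains of the ITGA4 and ITGB7 pair were thus lower with ZnSO4 at 6 and 24 h and showed no call with GSK-J4. ITGB7 and CCND2, a cell cycle gene, are known MAF targets. CCND2 fell with ZnSO4 at 3, 6 and 24 h (-0.17 ± 0.05, -0.40 ± 0.05 and -0.29 ± 0.06) and rose with GSK-J4 at these times (0.20 ± 0.05, 0.25 ± 0.05 and 0.31 ± 0.06). The MAF list holds MAF itself (group means 150.8 to 226.9 CPM) besides CCND2, CCR1, DEPTOR and NUAK1, and leaves out ITGB7. Of the 4 tested genes of this list, ZnSO4 lowered 3 at 3 h, 1 at 6 h and 1 at 24 h. Of all tested genes it lowered 4.16%, 4.51% and 5.58% at these times, and it raised 0 of the 4. GSK-J4 raised 1, 2 and 1 of the 4 (1.45%, 9.83% and 15.2% of all) and lowered 1, 1 and 0 (0.927%, 10.5% and 16.8%). CCR1 fell with ZnSO4 at 3 h (-0.45 ± 0.12, adjusted p = 0.0082) and DEPTOR rose with GSK-J4 at 6 h (0.44 ± 0.07, adjusted p = 8.8e-07).

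GPRC5D (ENSG00000111291), the orphan receptor, had the largest fold change of the 9 with ZnSO4 at 3, 6 and 24 h. At 3 h the ZnSO4 libraries held 5.94, 7.24 and 5.06 CPM against 9.37, 10.1 and 10.8 in DMSO (log2FC -0.70 ± 0.20, adjusted p = 0.011). At 6 h they held 5.82, 3.54 and 3.93 CPM against 7.94, 9.99 and 12.2 (-1.16 ± 0.22, adjusted p = 0.00017), and at 24 h 3.25, 3.69 and 5.43 CPM against 8.42, 7.49 and 8.29 (-0.97 ± 0.25, adjusted p = 0.0059). The groups did not overlap at any of these times, and the ZnSO4 level at 6 h was 2.23-fold lower than that of DMSO. The counts behind these values were 13 to 66 per ZnSO4 library. The call at 3 h was lost without ZnSO4 replicate 3 (-0.59, adjusted p = 0.095) and that at 24 h without ZnSO4 replicate 2 (-0.88, adjusted p = 0.059).
With GSK-J4, GPRC5D was lower at 6 h (7.58, 4.65 and 6.99 CPM; -0.63 ± 0.20, adjusted p = 0.019), which was lost without DMSO replicate 3 (-0.47, adjusted p = 0.17) or GSK-J4 replicate 2 (-0.45, adjusted p = 0.18) of 6 h. At 24 h with GSK-J4 (9.89, 8.90 and 6.00 CPM) it overlapped DMSO, and it stood above ZnSO4 (1.00 ± 0.26, adjusted p = 0.002). Over time in DMSO it was not called (11.4, 8.83 and 8.87 CPM at T0; -0.28 ± 0.19, adjusted p = 0.2), but it passed with library totals (-0.50, adjusted p = 0.018). The antisense gene GPRC5D-AS1 overlaps it at 0.180 to 1.08 CPM and was too low to test, as were GPRC5A, GPRC5B and GPRC5C of the same family.

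FCRL5 (ENSG00000143297), the IgG receptor, had the largest change over time of the 9. It held 10.8, 12.7 and 10.6 CPM at T0 and 1.77, 2.45 and 3.76 CPM in DMSO at 24 h (log2FC -2.12 ± 0.22, adjusted p = 2.9e-13), a 4.36-fold fall. All 9 libraries of 24 h, at 1.75 to 4.64 CPM, lay below all 30 earlier ones, the lowest of which held 7.58 CPM. Neither compound moved it past the threshold at any time. At 24 h the difference of GSK-J4 from DMSO was 0.42 with an interval of -0.16 to 0.99, from 13 to 25 counts per library of the 2 groups. FCRL4, its neighbour, was the 1 of 6 family members that passed the filter (0.741 to 2.04 CPM) and was not called in any comparison with DMSO or in DMSO over 24 h.

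CD46 (ENSG00000117335), a cofactor that lets factor I cleave complement on the cell, rose with time and fell with GSK-J4. At T0 it held 209.7, 208 and 143 CPM, and in DMSO at 24 h 317, 331 and 319 CPM (log2FC 0.77 ± 0.06, adjusted p = 1.4e-16). T0 replicate 3 was the lowest of all 39 libraries for this gene. With GSK-J4 at 24 h it held 296, 281 and 269 CPM, below all DMSO libraries (-0.19 ± 0.06, adjusted p = 0.015) and all ZnSO4 libraries (329, 347 and 321 CPM; -0.24 ± 0.07, adjusted p = 0.0039). The difference from DMSO was lost without GSK-J4 replicate 3 of 24 h (-0.17, adjusted p = 0.078) and with library totals (-0.10, adjusted p = 0.22).
The pseudogene CDCA4P4 lies within CD46 at no more than 0.301 CPM. CD59, which blocks the membrane attack complex, also rose over time (0.45 ± 0.05, adjusted p = 9.8e-11) and fell with GSK-J4 at 6 h (-0.25 ± 0.06) and 24 h (-0.40 ± 0.06, adjusted p = 3e-08). CD55, which speeds the decay of the convertase, rose over time (0.46 ± 0.08) and with GSK-J4 at 6 h (0.32 ± 0.08, adjusted p = 0.0028) and ZnSO4 at 3 h (0.24 ± 0.08, adjusted p = 0.038). Of the 3 tested complement regulators, 1 fell and 0 rose with GSK-J4 at 24 h (median 0.07; 16.8% and 15.2% of all tested genes).

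Among 9 plasma cell transcription and secretory genes, ZnSO4 lowered 2 at 1 h, 2 at 3 h, 5 at 6 h and 4 at 24 h and raised 0 (medians -0.07, -0.05, -0.21 and -0.15). Of all tested genes ZnSO4 lowered 0.180%, 4.16%, 4.51% and 5.58% at these times. IRF4, the master factor of plasma cells, fell from 1 h on (-0.60 ± 0.06, adjusted p = 3.5e-11). It was still lower at 24 h (-0.33 ± 0.06, adjusted p = 5.1e-05). The first antigen called with ZnSO4, GPRC5D, was called at 3 h and stood at -0.27 ± 0.18 at 1 h (adjusted p = 0.88). Its standard error was the larger, and whether IRF4 moved before it was not tested. XBP1, the secretory factor, fell with ZnSO4 at 6 h (-0.26 ± 0.06) and 24 h (-0.25 ± 0.06) and rose with GSK-J4 at 3 h (0.20 ± 0.06), 6 h (0.47 ± 0.06) and 24 h (0.24 ± 0.06). GSK-J4 raised 2 and lowered 3 of the 9 at 24 h (median 0.07; 15.2% and 16.8% of all). IKZF1, which controls plasma cell genes, fell over time in DMSO (-0.99 ± 0.10, adjusted p = 1.4e-12).
Of 29 tested other surface molecules of myeloma and B cells, GSK-J4 raised 4 and lowered 10 at 24 h (median -0.10; 15.2% and 16.8% of all tested genes), and ZnSO4 raised 3 and lowered 3 (median 0.00; 3.98% and 5.58% of all). SLC3A2, the heavy chain of amino acid transporters, rose with GSK-J4 at 6 h (0.88 ± 0.05, adjusted p = 5.6e-23). CXCR4, the bone marrow homing receptor, fell from 25.2 to 14.4 CPM with GSK-J4 at 24 h (-0.80 ± 0.13, adjusted p = 1.2e-06), and CD74, the invariant chain, rose over time (0.51 ± 0.05, adjusted p = 4.2e-15).

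Across the 13 group means, the antigens fell into patterns set mostly by the 24 h groups. Pearson's r of log2 levels was 0.95 between SDC1 and SLAMF7, 0.96 between SLAMF7 and FCRL5 and -0.97 between FCRL5 and CD46. Over the 10 groups before 24 h these became 0.40, 0.37 and -0.56. Not every pair weakened in this way. For TNFRSF17 and GPRC5D r was 0.78 over 13 groups and 0.86 over the 10 before 24 h. For GPRC5D and ITGB7 it was 0.45 and 0.71, and for FCRL5 and ITGB7 it changed sign, from -0.51 to 0.70. The groups share the cell line, the scaling and in part the time, so these r are descriptions.
The gene most like each antigen over the 13 groups, among those averaging at least 1 log2 CPM, was EXOSC5 for TNFRSF17 (r = 0.96), NEDD9 for GPRC5D (0.92), EMC2 for SDC1 (0.99), VMA21 for CD38 (0.90) and LCT for SLAMF7 (0.98). For FCRL5 it was GSDMB (0.996), for ITGB7 ASCC2 (0.91), for CD46 SMURF1 (0.99) and for LY9 PEMT (0.97). The second most like GPRC5D was ITGA4 (0.92), the partner chain of ITGB7.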

How the data were processed

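RNA was measured in 39 JJN3 libraries. The deposited values are whole-number read counts for each gene and library, not normalized. HISAT2 2.1.0 and hg19 are named in the submitters' processing notes. The counter, annotation and strand option are not given in the sources used, and reads of overlapping genes may be split or shared. The protocol in the labels leaves out the 1 h time, and the sample labels were followed.

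All libraries were fitted together in R 4.3.3 with edgeR 4.0.16 (quasi-likelihood F-test on the groups, TMM factors, low counts removed by filterByExpr at its minimum of 10). The fit had 26 residual and 34.7 prior degrees of freedom and a biological coefficient of variation of 4.8%. Adjusted p-values are Benjamini-Hochberg values over all 14460 genes. CPM are TMM-scaled, and standard errors were derived as the absolute log2FC divided by the root of F. Intervals are 95% intervals with 60 degrees of freedom. Exon lengths and overlaps come from GENCODE 29, which is of another build than the alignment and gave no coordinates. The steps were tested on simulated data.

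The members and the lists were chosen with earlier results of these data known, and the overlapping genes were added after these data were seen. Text names all members, up to 3 genes per list with the smallest p over the 8 comparisons with DMSO and DMSO at 24 h against T0, and the most alike patterns. Genes too low to test are named with their levels only, and 1 listed gene that met the rule is not reported here. Of 173 listed symbols 171 matched. Alternatives were RLE factors, library totals, no filter, DESeq2 1.42.0, only the groups compared and leaving out each library; added after seeing the data were a fit without 24 h groups and DMSO at 6 h as reference.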

Additional observations from a re-analysis of the deposited data

Results flagged for a closer look

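The effect of GSK-J4 against DMSO differed between times, by the test of the difference itself, for 2 of the 9 tested antigens. For SDC1 it changed by -0.38 from 3 h to 6 h and by 0.35 from 6 h to 24 h on the log2 scale. For CD38 it changed by 0.61 from 6 h to 24 h. The 6 h libraries enter both of the SDC1 differences. The rule for single libraries far from the rest of their group needs more than 3 libraries and was not applied; the effect of leaving out each library is given with the results.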

How the results depend on the processing

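Counts of called antigens refer to the 9 tested. Of single values with 1 library left out, 1256 kept their side of the threshold, 30 lost their call and 10 gained one. With DESeq2 the numbers were 176, 3 and 1. Direction was compared only for values called in at least 1 of the fits set side by side. Among these, ITGB7 in DMSO at 24 h against T0 reversed, to -0.0701 with library totals. Values that were not called could change sign, as GPRC5D with GSK-J4 at 1 h did (-0.15, from -0.35 to 0.05 over the settings). Fitting only the groups compared called 1 with GSK-J4 at 1 h (TNFRSF17) and 2 with GSK-J4 at 3 h. With ZnSO4 this fit called 3 at 3 h (GPRC5D and TNFRSF17 lower, SLAMF7 higher) and 2 at 6 h. In GSK-J4 against ZnSO4 at 6 h it called 2. Library totals called 0 with GSK-J4 at 3 h, 2 with ZnSO4 at 3 h, 2 with ZnSO4 at 6 h, and 2 each in GSK-J4 against ZnSO4 at 3 h and 6 h. RLE factors called 2 with ZnSO4 at 3 h and 2 in GSK-J4 against ZnSO4 at 6 h. Without a filter there were 2 with ZnSO4 at 3 h, 2 with ZnSO4 at 6 h, 2 in GSK-J4 against ZnSO4 at 6 h, 1 in DMSO at 6 h against T0 and 1 for the ZnSO4 effect of 6 h minus 3 h (SLAMF7). DESeq2 called 0 with GSK-J4 at 3 h and 1 in DMSO at 6 h against T0, and the fit without the 24 h groups 0 with GSK-J4 at 3 h. The cause was not tested.

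Leaving out 1 library at a time gave 0 to 1 calls with GSK-J4 at 3 h, 1 to 3 at 6 h and 2 to 3 at 24 h. With ZnSO4 it gave 0 to 1 at 3 h, 2 to 3 at 6 h and 3 to 4 at 24 h. GSK-J4 against ZnSO4 had 1 to 2 at 6 h and 6 to 7 at 24 h. DMSO against T0 had 0 to 2 at 3 h, 0 to 3 at 6 h and 6 to 8 at 24 h. For the GSK-J4 effect it gave 1 for 6 h minus 3 h and 2 for 24 h minus 6 h. It gave 0 in the comparisons of 1 h, in GSK-J4 against ZnSO4 at 3 h and for both ZnSO4 effects. No paired analysis was possible because the labels carry no replicate numbers. Those used here follow the sample order within each group and match no library across groups. Depth limits GPRC5D, FCRL5 and LY9, with at most 120 counts per library, and TNFRSF13B could not be tested.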
